A study of Homo sapiens and Mus musculus with 19 samples.

Results

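The activin and TGF-beta pathway genes described here are 10 genes of 1 signalling family, INHBA, INHBB, FST, LTBP1, LTBP2, LTBP3, TGFB1, TGFB2, TGFBR2 and SMAD7, out of 19775 human genes that the arrays measure by name. INHBB and LTBP3 were chosen because their signal was lower where NF-kB was activated in the human arrays, so their human values are given as a description with no test. The other 8 were taken as members of the same pathway. Each gene is represented by its brightest probe set (a group of short oligonucleotides on the array) among those annotated to that gene alone, and all 10 have a counterpart among the 18194 named mouse genes. All 10 passed the filter on dim genes in both species.

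The study measured RNA on 19 single-colour expression arrays of lung cancer cells whose NF-kB pathway had been turned up or down by a retrovirus. The human part holds 15 arrays, 1 for each of 3 vectors in each of 5 lines, namely A549 (lung carcinoma), H358 (bronchioalveolar carcinoma) and the adenocarcinoma lines H23, HCC827 and PC9. The vectors were MiG, the empty control that expresses GFP alone; IkB_SR, which adds a super-repressor form of IkB alpha with 2 serines changed to alanine; and IKKb, which adds an activated form of the kinase IKK beta with 2 serines changed to glutamate. The mouse part holds 4 arrays of Lewis lung carcinoma cells, labelled LLC-kB OVA and called LLC here, with 2 arrays for MiG and 2 for IKKb. All cells, controls included, carried a MiG retrovirus and were sorted on GFP, so each culture is a transduced pool. The labels do not explain the kB OVA part of the LLC name or say whether its arrays come from separate cultures, so the LLC p-values may measure technical spread. In the human comparisons the replicate is the cell line.

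Activins are dimers of inhibin beta subunits, and INHBA and INHBB encode the subunits of activin A and activin B. Follistatin, the product of FST, binds activins and blocks them. TGF-beta ligands (TGFB1, TGFB2) leave the cell in a latent complex, which the latent TGF-beta binding proteins LTBP1 and LTBP3 anchor to the matrix, while the related LTBP2 is a matrix protein that does not bind the ligand. TGFBR2 is the receptor that binds the ligand first, both ligand groups signal through SMAD2 and SMAD3, and SMAD7 is the inhibitory SMAD that shuts the receptors down.

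The windows of 250 bases before the annotated start are shown for the pair the report turns on, INHBB and LTBP3, and for INHBA and FST, whose differences ran the other way. They come from RefSeq on the build GRCh38.p14, where all 10 members were matched, and read 5′ to 3′ on the gene's strand. INHBB lies on the plus strand at chr2:120345886-120346135, LTBP3 on the minus strand at chr11:65558360-65558609 (the first of its annotated starts), INHBA on the minus strand at chr7:41703091-41703340, and FST on the plus strand at chr5:53480379-53480628. The INHBA window lies inside the annotated span of that gene, which reaches to position 41705406, and the other windows lie upstream of the gene. Capitals mark matches, on either strand, to the NF-kB site known as the kB consensus, to the AP-1 site TGANTCA, to the SMAD box CAGAC or to the TATA box TATAAA, and none of these motifs overlap in the 4 windows.
INHBB: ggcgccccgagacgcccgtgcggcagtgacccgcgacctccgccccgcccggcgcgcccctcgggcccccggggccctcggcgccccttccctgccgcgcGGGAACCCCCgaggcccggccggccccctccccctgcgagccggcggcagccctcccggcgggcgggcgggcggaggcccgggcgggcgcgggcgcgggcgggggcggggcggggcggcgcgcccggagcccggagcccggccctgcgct
LTBP3: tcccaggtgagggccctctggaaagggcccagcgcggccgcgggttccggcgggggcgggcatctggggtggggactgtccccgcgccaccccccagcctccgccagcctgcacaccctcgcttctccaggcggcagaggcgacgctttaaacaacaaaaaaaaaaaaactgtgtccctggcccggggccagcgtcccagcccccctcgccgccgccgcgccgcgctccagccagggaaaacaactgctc
INHBA: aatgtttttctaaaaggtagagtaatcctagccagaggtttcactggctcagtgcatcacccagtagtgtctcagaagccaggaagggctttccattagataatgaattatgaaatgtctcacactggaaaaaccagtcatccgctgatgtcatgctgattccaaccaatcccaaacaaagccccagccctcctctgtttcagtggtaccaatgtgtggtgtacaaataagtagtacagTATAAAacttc
FST: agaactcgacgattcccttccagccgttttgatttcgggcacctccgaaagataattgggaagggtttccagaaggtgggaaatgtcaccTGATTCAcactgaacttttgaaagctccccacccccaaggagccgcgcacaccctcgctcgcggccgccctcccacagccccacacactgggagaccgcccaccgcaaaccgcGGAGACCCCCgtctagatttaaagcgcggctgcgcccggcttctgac

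The INHBB window was 89.6% G or C and the LTBP3 window 70.4%, against 42.8% for INHBA, 60% for FST and a median of 58% over all 35114 windows in the table. The INHBB window held 1 match to the kB consensus, starting 150 bases before the start. That of FST held 1 match to the kB consensus at 47 bases and 1 to AP-1 at 160 bases. INHBA held a TATA box 11 bases before its start, and the LTBP3 window held no match to any of the 4. Matches to the kB consensus occur in 5.21% of all windows, to AP-1 in 6.57%, to the SMAD box in 38% and to TATA in 10.7%. The 10 members have 16 windows, and a member was counted if any of its windows held a match. These counts are per gene and the shares above per window. Over the 10 members, 2 had a window with a kB consensus match, 1 with AP-1, 3 with the SMAD box (LTBP1, TGFB2 and SMAD7) and 3 with TATA (INHBA, TGFB2 and SMAD7). A match describes letters only and says nothing on whether a factor binds.

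Before the members, the NF-kB genes showed what the vectors did. The measure was the log2 difference of signal plus 16, given with the SE of the fit over all 15 human arrays. RELB, an NF-kB subunit and target, was 2.16 ± 0.23 (n = 5 lines) higher with IKKb than with IkB_SR (adjusted p = 0.000795). TNFAIP3, a feedback inhibitor of NF-kB, was 3.39 ± 0.41 higher (adjusted p = 0.00144), and NFKB2, the precursor of p52, 1.70 ± 0.21 higher (adjusted p = 0.00161), each in 5 of 5 lines. NFKBIA encodes the IkB alpha that the IkB_SR vector carries, and its signal with IkB_SR was above MiG in 4 lines by 0.68 to 2.82. In the array labelled H23 IkB_SR it was below the H23 MiG array (7292 against 9329), although RELB (259 against 548) and TNFAIP3 (927 against 2840) were also lower there. IKBKB, the gene of the IKKb vector, differed by -0.19 ± 0.12 between IKKb and MiG (adjusted p = 0.907), and whether its probes lie in the transduced sequence is not given in the sources used here. The members' differences between IKKb and IkB_SR are given below with and without the array labelled H23 IkB_SR.

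Some arrays stood apart in their controls. In H358 the Dap RNA added as a spike-in gave 1128 with MiG, 1103 with IkB_SR and 4376 with IKKb, while the actin signal near the 3′ end over that near the 5′ end was 1.41, 1.38 and 1.74. In PC9 the spike-in gave 2376, 4047 and 4354. The LLC arrays numbered 1 gave 1679 and 1567, and those numbered 2 gave 28.7 and 19.4. Epithelial markers fitted the human labels, with 4 to 6 of 6 (among EPCAM, KRT8, KRT18, KRT19, KRT7 and CDH1) above the 40th percentile of every human array. On these arrays 1 to 5 of 7 fibroblast, 1 to 3 of 5 endothelial and 2 to 5 of 7 leukocyte markers also passed it, so this cutoff alone does not separate the types. The summed signal was 41880 to 128300 for the epithelial list, 611 to 3246 for fibroblasts, 136 to 687 for endothelium and 276 to 1079 for leukocytes. In LLC, Cdh1 was below that percentile on every array, 4 to 5 epithelial markers were above it with MiG and 2 to 3 with IKKb, and their summed signal was 12120 to 14520 with MiG and 9462 to 9888 with IKKb. In these bulk samples, fewer cells of a type and less RNA per cell cannot be told apart.

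INHBB, the activin B subunit, had its highest signal with IkB_SR in every human line. In A549 its signal was 1278 with MiG, 4105 with IkB_SR and 1195 with IKKb, and in PC9 the same 3 vectors gave 3691, 6993 and 2592. H358 gave 6726, 8932 and 2631, and HCC827 gave 1009, 2261 and 883. In H23, the line with the lowest INHBB, the signals were 62.5, 119.7 and 81.6. The lines kept their rank across a wide range, with H358 and PC9 highest and H23 lowest, yet within each line the IkB_SR array was the high one.

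Against IkB_SR, INHBB with IKKb was lower in 5 of 5 lines, with a mean log2 difference of -1.35 ± 0.19, or 2.56-fold. It was -1.77 in A549, -1.76 in H358, -1.43 in PC9, -1.34 in HCC827 and -0.48 in H23. Most of this difference lay between IkB_SR and MiG. IkB_SR stood above MiG in 5 of 5 lines, as it did for 4.04% of all genes tested, by 0.99 ± 0.19, from 0.41 in H358 to 1.67 in A549. Nothing is read from that share, because INHBB was chosen on these human arrays. IKKb stood below MiG in 4 of 5 lines, with a mean difference of -0.37 ± 0.19, of which H358 gave -1.35 and H23 went the other way at 0.31. Without the H358 IKKb array, whose spike-in and actin readings stood apart, the mean difference between IKKb and MiG was -0.19 and that between IKKb and IkB_SR was -1.18. Without the array labelled H23 IkB_SR, the difference between IKKb and IkB_SR was -1.49 and that between IkB_SR and MiG 1.12.

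**Figure D1:**
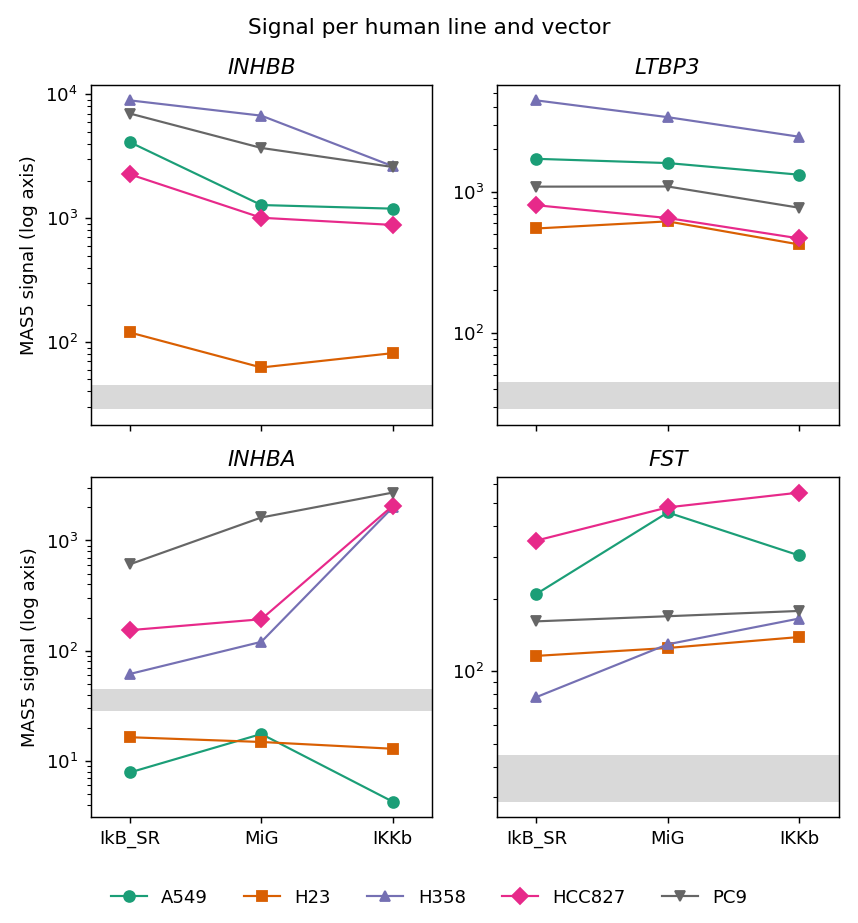
MAS5 signal on a log axis for INHBB, LTBP3, INHBA and FST in the 5 human lines (1 point per array, lines join the 3 vectors of a cell line), with the grey band showing the range of the 40th percentile over the arrays, 28.7 to 45.0. INHBB is highest with IkB_SR in every line, LTBP3 is lowest with IKKb in every line, and INHBA lies below the band in A549 and H23.

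LTBP3, which anchors latent TGF-beta in the matrix, had its lowest signal with IKKb in every human line. With MiG, IkB_SR and IKKb it read 3390, 4459 and 2463 in H358 and 1602, 1717 and 1325 in A549. PC9 gave 1093, 1090 and 772.5, HCC827 gave 653, 805 and 468, and H23 gave 618, 550 and 424. The IkB_SR array read above MiG in H358, HCC827 and A549, below it in H23 and nearly level with it in PC9. The IKKb array was always the low one.

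LTBP3 was lower with IKKb than with MiG in 5 of 5 lines, with a log2 difference of -0.44 ± 0.09, 4 lines between -0.53 and -0.46 and A549 at -0.27. Against IkB_SR the difference was -0.57 ± 0.09, or 1.48-fold lower, again in 5 of 5. IkB_SR and MiG differed by 0.12 ± 0.09, with 3 lines higher and 2 lower. For scale, 5.76% of all genes tested were lower in 5 of 5 lines between IKKb and IkB_SR and 4.83% between IKKb and MiG, and nothing is read from this for a pair chosen on these values. LTBP3 has 3 probe sets, and they did not move together. The second, above the 40th percentile on all 15 arrays, differed by -0.21 between IKKb and IkB_SR (lower in 4 of 5 lines) and by -0.06 between IKKb and MiG (lower in 3 of 5). The third, above that percentile on 8 of 15 arrays, differed by 0.51 between IKKb and IkB_SR, so the mean of the 3 gave -0.09 between IKKb and IkB_SR and -0.07 between IKKb and MiG. INHBB has 1 probe set, so it has no such check.

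The order IkB_SR over MiG over IKKb appeared in 4 of 5 lines for INHBB and in 3 for LTBP3 and TGFB2. It appeared in at least 4 lines for 1.84% of all genes tested. Nothing is read from this share for INHBB and LTBP3, which were chosen on these arrays. Between IKKb and MiG, 0 members were higher in 5 of 5 lines, against 3.32% of all genes. The reverse order, IKKb over MiG over IkB_SR, appeared in 4 lines for FST, against 1.53% of genes with at least 4 lines, and in 3 for INHBA. No share of all genes was computed for 3 lines in either order.

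Most of the variation of the members came from the line. For INHBB, 91.1% of the sum of squares of its log2 values lay between lines, 7.2% between vectors and 1.7% was left over. LTBP3 gave 92.9%, 6.1% and 1%, and the medians over all genes tested were 88.7%, 1.9% and 8.3%. Both genes were chosen on these arrays, so nothing is read from their shares between vectors. By the mean over the 3 vectors, the INHBB order was H358 (12.41 ± 0.92 on the log2 scale, SD of the 3 arrays), PC9 (11.99 ± 0.72), A549 (10.86 ± 0.99), HCC827 (10.32 ± 0.73) and H23 (6.66 ± 0.40). The ranges of signal of neighbours in this order overlapped except between HCC827 and H23. For LTBP3 the order was H358 (11.71 ± 0.43), A549 (10.60 ± 0.19), PC9 (9.95 ± 0.28), HCC827 (9.33 ± 0.38) and H23 (9.08 ± 0.27), with H358 and A549 each standing clear of the next line and the last 3 overlapping in turn.

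INHBA, the activin A subunit, gave the largest difference of the 10 members, but in 3 lines only. Its signal with MiG, IkB_SR and IKKb was 120.4, 61.6 and 1997 in H358 and 193, 154 and 2063 in HCC827. In PC9 it was 1617, 609 and 2720. In A549 it was 17.6, 7.87 and 4.27, and in H23 14.9, 16.4 and 12.9, all below the 40th percentile of their arrays, so these 6 values have no order. In the other 3 lines the IKKb array was highest and the IkB_SR array lowest, and the signal with IKKb was 32.4, 13.4 and 4.47 times that with IkB_SR in H358, HCC827 and PC9.

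The mean difference of INHBA between IKKb and IkB_SR over the 5 lines was 2.01 ± 0.61 (adjusted p = 0.154), and it did not pass the threshold of 0.05. Against MiG it was 1.42 ± 0.61 (adjusted p = 0.878), and IkB_SR differed from MiG by -0.58 ± 0.61 (adjusted p = 0.996). Leaving out the H358 IKKb array left 0.78 between IKKb and MiG. A second INHBA probe set gave 2.05 between IKKb and IkB_SR, with 4 of 5 lines higher, and the third, dimmer one gave 1.11 with 5 of 5 higher. In both sets A549 and H23 lay below the 40th percentile on every array, so these counts include lines with no order. In the third set the H358 arrays with IkB_SR (9.33) and IKKb (28.7) were also below it, and the MiG array read 40.1.

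FST, the activin antagonist, was higher with IKKb than with IkB_SR in 5 of 5 lines, as were 4.52% of all genes. Its signal with MiG, IkB_SR and IKKb was 458, 209.6 and 303 in A549, 480.3, 349.5 and 553 in HCC827, and 129, 78.0 and 166 in H358. In PC9 it was 169, 161 and 178, and in H23 125, 116 and 139. In this brightest probe set the IkB_SR array was lowest in every line, and A549 alone had its highest value with MiG. The difference between IKKb and IkB_SR was 0.49 ± 0.17 (adjusted p = 0.211), that between IkB_SR and MiG -0.46 ± 0.17 (5 of 5 lines lower, against 3.69% of all genes; adjusted p = 0.996), and that between IKKb and MiG 0.03 ± 0.17 (adjusted p = 0.986). None of the 3 passed the threshold. A second FST probe set, above the 40th percentile on 9 arrays, differed by 0.76 between IKKb and IkB_SR (5 of 5 lines higher). The third, above it on 11 arrays, differed by 0.57 (4 of 5 higher). There H358 went the other way, at 43.6, 54.7 and 22.4 with MiG, IkB_SR and IKKb.

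**Figure D2:**
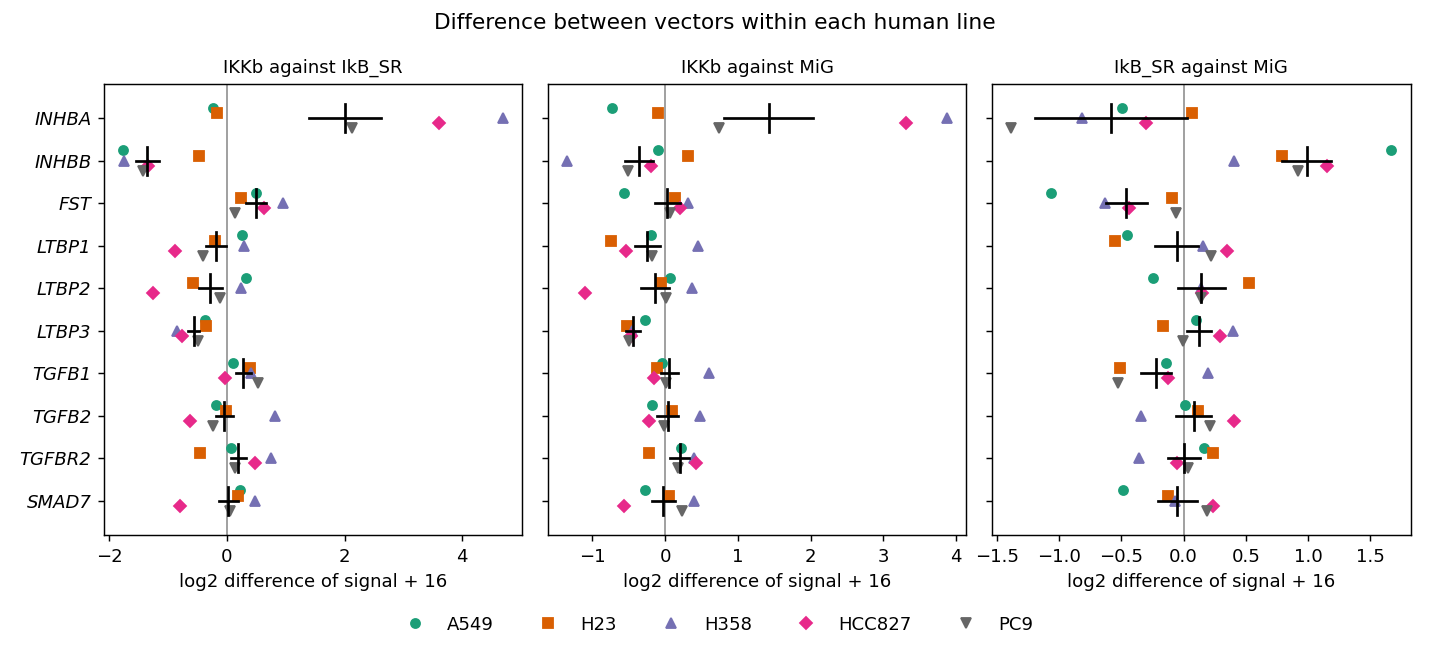
Difference in log2 of signal plus 16 between vectors within each human line (coloured points, 1 per line) for the 10 members in 3 comparisons. Black ticks show the mean over 5 lines. Black bars show the SE of the fit, which pools the spread over all 15 human arrays. The INHBB points lie left of 0 in 5 of 5 lines for IKKb against IkB_SR and right of 0 in 5 of 5 for IkB_SR against MiG, and the INHBA points spread from -0.24 to 4.70 in the first panel.

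Among the ligands, TGFB1 ranged from 218 to 1110 over the 15 arrays and TGFB2 from 828 to 4500. TGFB1 was lowest in H358, at 218 with MiG, 252 with IkB_SR and 339 with IKKb. The other 4 lines lay between 585 and 1110, and PC9, H23 and A549 had their lowest value with IkB_SR (585, 776 and 874, against 849, 1110 and 968 with MiG). TGFB1 differed by 0.28 ± 0.12 between IKKb and IkB_SR (adjusted p = 0.32; 4 of 5 lines higher) and TGFB2 by -0.05 ± 0.14 (adjusted p = 0.918). For TGFB2, H358 at 0.82 and HCC827 at -0.63 lay on opposite sides.

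LTBP1, a latency protein of the same family as LTBP3, ranged from 75.6 to 1604, and H23 was the low line. It differed by -0.19 ± 0.17 between IKKb and IkB_SR (adjusted p = 0.68), with 3 lines lower and 2 higher. LTBP2, the matrix protein, ranged from 382.5 to 4211 and differed by -0.28 ± 0.19 (adjusted p = 0.544). One line carried most of this: in HCC827, LTBP2 read 3794 with MiG, 4211 with IkB_SR and 1756 with IKKb, and its second probe set read 2251, 2563 and 906. In HCC827 the 3 LTBP genes were all lowest with IKKb, LTBP1 reading 609, 779 and 414.5. In H358, LTBP3 was lowest with IKKb while LTBP1 (1171, 1305 and 1604) and LTBP2 (696.5, 768 and 909) were highest there.

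TGFBR2, the ligand-binding receptor, ranged from 554 to 6576 and was brightest in A549, at 5638, 6300 and 6576 with MiG, IkB_SR and IKKb. It differed by 0.20 ± 0.13 between IKKb and IkB_SR (adjusted p = 0.531), with H23 the 1 line lower. SMAD7, the inhibitory SMAD, ranged from 180 to 1011 and differed by 0.02 ± 0.16 (adjusted p = 0.967). Its HCC827 arrays read 745, 882 and 500.5, the opposite of H358 at 540, 515 and 719.6. SMAD7 took 0.1% of its sum of squares from the vector, the smallest share of the 10.

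**Figure D3:**
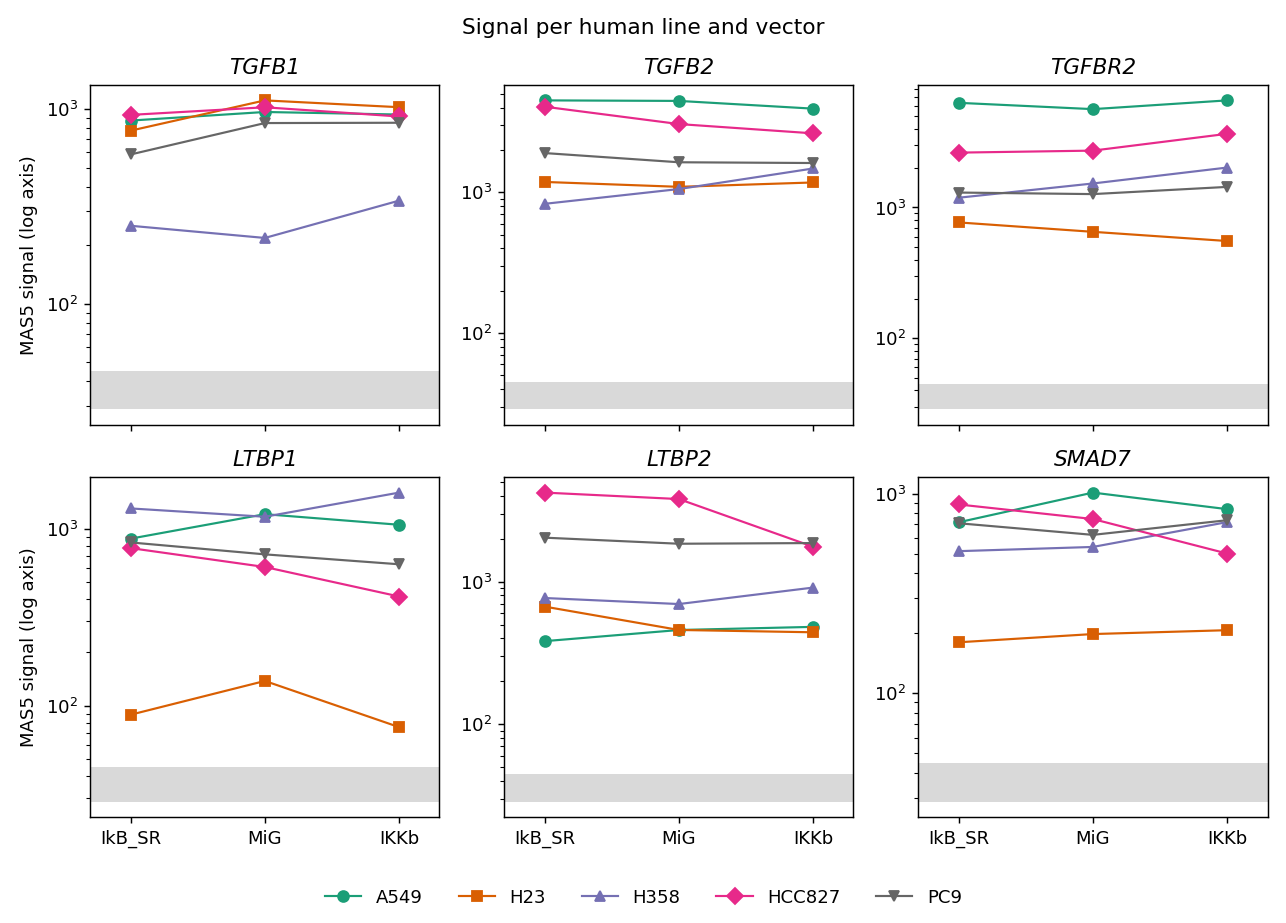
MAS5 signal on a log axis for TGFB1, TGFB2, TGFBR2, LTBP1, LTBP2 and SMAD7 in the 5 human lines (1 point per array, lines join the 3 vectors of a cell line); the grey band is the range of the 40th percentile over the arrays, 28.7 to 45.0. H358 is the low line for TGFB1 and H23 for LTBP1 and SMAD7, and LTBP2 in HCC827 reads 1756 with IKKb against 3794 with MiG.

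Over the 8 members tested, 0 passed the threshold between IKKb and IkB_SR, where 0.922% of all 15185 genes did (140 genes, 91 higher and 49 lower). Of these 8, 3 had an unadjusted p under 0.05 (INHBA, FST and TGFB1), as did 14.2% of all genes. Between IKKb and MiG and between IkB_SR and MiG, 0 of 8 members and 0% of all genes passed in limma, with 839 and 662 genes at an unadjusted p under 0.05. The 10 members went both ways between IKKb and IkB_SR, with 5 higher and 5 lower in mean, and their median difference was -0.01, as was that of all genes. Without the array labelled H23 IkB_SR the differences between IKKb and IkB_SR were 2.36 for INHBA, 0.57 for FST, -0.63 for LTBP3, -0.25 for LTBP1, -0.19 for LTBP2, 0.23 for TGFB1, -0.05 for TGFB2, 0.31 for TGFBR2 and -0.01 for SMAD7, whose sign turned, and 0 of the 8 tested members passed (lowest adjusted p = 0.134, INHBA). Without the H358 IKKb array they were 1.36 for INHBA, 0.40 for FST, -0.53 for LTBP3, -0.33 for LTBP1, -0.41 for LTBP2, 0.20 for TGFB1, -0.21 for TGFB2, 0.10 for TGFBR2 and -0.09 for SMAD7, whose sign turned here too, and again 0 of 8 passed (lowest adjusted p = 0.309, INHBA). The human comparisons share arrays, and their values are not independent of each other.

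The other genes of the pathway were counted from 6 lists with 64 genes, of which 60 were on the human array and 58 passed the filter. Between IKKb and IkB_SR, 3 were higher and 1 lower past the threshold, against 0.599% and 0.323% of all genes, and the median difference of the 58 was 0.05 against -0.01 over all genes. ITGAV, the integrin alpha subunit of receptors that free TGF-beta from its latent complex, was 0.62 ± 0.10 higher (adjusted p = 0.00884). KLF10, an early target of TGF-beta, was 0.49 ± 0.11 higher (adjusted p = 0.0455), and TGIF2, a corepressor of SMADs, 0.49 ± 0.11 higher (adjusted p = 0.0486). ID1, a target of the related BMP pathway, was lower by a difference of -0.50 ± 0.11 (adjusted p = 0.0455). All 4 went the same way in 5 of 5 lines. The ITGAV call was lost without H23 (adjusted p = 0.0524) or PC9 (adjusted p = 0.0643), and the other 3 calls were lost on leaving out any one of 4 lines, with adjusted p between 0.0563 and 0.228. Without the array labelled H23 IkB_SR the calls of TGIF2 (adjusted p = 0.0955) and ID1 (adjusted p = 0.0508) were lost, and without the H358 IKKb array those of KLF10 and ID1 (adjusted p = 0.0883 for both). The ITGAV call was also lost with no intensity trend (adjusted p = 0.0688) or the compared vectors only (adjusted p = 0.114), and the other 3 calls were lost in both, with a pseudocount of 1, with no filter and with averaged probe sets (adjusted p from 0.0548 to 0.327).

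By list, 0 of 8 ligands and secreted antagonists passed the threshold between IKKb and IkB_SR, 1 of 9 latency and activation genes, 0 of 9 receptors and co-receptors, 1 of 16 SMADs and their regulators, 1 of 13 targets of SMAD2/3 and 1 of 3 BMP targets. The Nodal antagonist LEFTY1 differed by -0.65 ± 0.29 (adjusted p = 0.332) and the ligand NODAL by 0.38 ± 0.41 (adjusted p = 0.732). Among the receptors, the type I receptor TGFBR1 differed by 0.24 ± 0.11 (adjusted p = 0.333) and the decoy receptor BAMBI by 0.50 ± 0.25 (adjusted p = 0.392), or by 0.12 without H23. Against MiG, 0 of 58 passed with either vector. THBS1, an activator of latent TGF-beta, differed by -0.50 ± 0.23 between IkB_SR and MiG (adjusted p = 0.996), or by -0.28 without the array labelled H23 IkB_SR, and NEDD4L, a ubiquitin ligase that acts on SMADs, by 0.39 ± 0.14 between IKKb and MiG (adjusted p = 0.878).

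The genes whose pattern over the 15 arrays was most like that of INHBB, by Pearson's r of log2 values after removal of the line mean, were RXRA (r = 0.939), PLEKHM3 (0.925), UGGT2 and TSPAN2 (both 0.915) and CRACDL (0.911). The most opposite were MAP7D1 (-0.942), RELB (-0.937) and PARP1 (-0.936). For LTBP3 they were FYB1 (0.941), PHF2 (0.933), IDH2 (0.925), FLOT2 (0.923) and KCNN4 (0.921), and the most opposite were C6orf62 (-0.92), IL32 (-0.918) and BID (-0.909). INHBB and LTBP3 correlated with each other at 0.72, INHBB with FST at -0.81 and with INHBA at -0.69. These are descriptions over the same 15 arrays and 3 vectors, on which INHBB and LTBP3 were chosen. Some include dim values, as FYB1 was above the 40th percentile on 9 of 15 arrays, IL32 on 7, CRACDL on 12 and TSPAN2 on 13. INHBA was below it on every A549 and H23 array. When a gene's probe sets were averaged in place of taking the brightest, the r of UGGT2 with INHBB was 0.257, and those of the 8 genes named for LTBP3 lay between -0.442 and 0.472, with PHF2 turning to -0.318.

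INHBB and LTBP3 were chosen on the human arrays, and the 4 LLC arrays are other samples of another species. There, Ltbp3 was lower on both IKKb arrays, and Inhbb, near the dim end of the arrays, was not. Ltbp3 read 4842 and 3037 with MiG and 2738 and 2334 with IKKb, so the MiG arrays did not overlap with the IKKb arrays. The difference was -0.60 ± 0.26 (n = 2 arrays per vector; adjusted p = 1), and it did not pass the threshold. It was -0.26 without the first MiG array and -0.93 without the second. A second probe set of Ltbp3 read 2196 and 1470 with MiG against 1591 and 1307 with IKKb, a difference of -0.31 with overlap. The dimmer remaining 2 differed by -0.17 and 0.01.

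Inhbb read 19.7 and 17.9 with MiG, both below the 40th percentile of their arrays, and 48.8 and 69.3 with IKKb. Taken against that percentile, the IKKb arrays were at least 1.44-fold higher, and the measured difference was 1.10 on the log2 scale. Inhbb passed the filter on dim genes only through its IKKb arrays, where it was high, so no test is given for it. The other Inhbb probe set, above the percentile on 1 of 4 arrays, went the other way, at 42.4 and 37.4 with MiG and 8.85 and 22.0 with IKKb. The 2 Inhbb probe sets differed in direction.

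Leaving Inhbb aside, 2 of the other 9 mouse members did not overlap with IKKb higher (Ltbp2 and Tgfb1), where 10.9% of all 12555 genes did the same. A further 2 did not overlap with IKKb lower (Ltbp3 and Tgfbr2), against 11.2% of all genes, and 5 overlapped. Tgfb1 read 387 and 336 with MiG and 562 and 542 with IKKb, a difference of 0.59 ± 0.21 (adjusted p = 1). Its second probe set was also higher with IKKb, at 99.8 and 90.0 against 67.9 and 71.4. Tgfbr2 read 3519 and 2547 with MiG and 2439 and 2000 with IKKb, a difference of -0.44 ± 0.23 (adjusted p = 1), and Ltbp2 read 31.4 and 62.1 against 88.6 and 106.7, a difference of 0.90 ± 0.39 (adjusted p = 1). Without the first MiG array these were -0.20 and 0.54, and without the second -0.67 and 1.26.

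Fst read 65.7 and 228 with MiG and 190 and 309 with IKKb in LLC, higher with IKKb in each number but overlapping between the vectors, with a difference of 0.87 ± 0.53 (adjusted p = 1). Fst differed by 0.09 without the first MiG array and by 1.66 without the second. Ltbp1 differed by -0.23 ± 0.21, Inhba by 0.08 ± 0.65, Tgfb2 by 0.14 ± 0.52 and Smad7 by 0.10 ± 0.50 (adjusted p = 1 for each). Of the 9 members other than Inhbb, 0 passed the threshold, where 0.0239% of genes (3, all higher) did, and 1 (Tgfb1) had an unadjusted p under 0.05, against 1.87% of all genes. The NF-kB gene Relb differed by 1.85 ± 0.36 in the same fit (adjusted p = 0.93) and did not pass the threshold either. Leaving out 1 array at a time, the Relb difference ranged from 1.425 to 2.28.

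**Figure D4:**
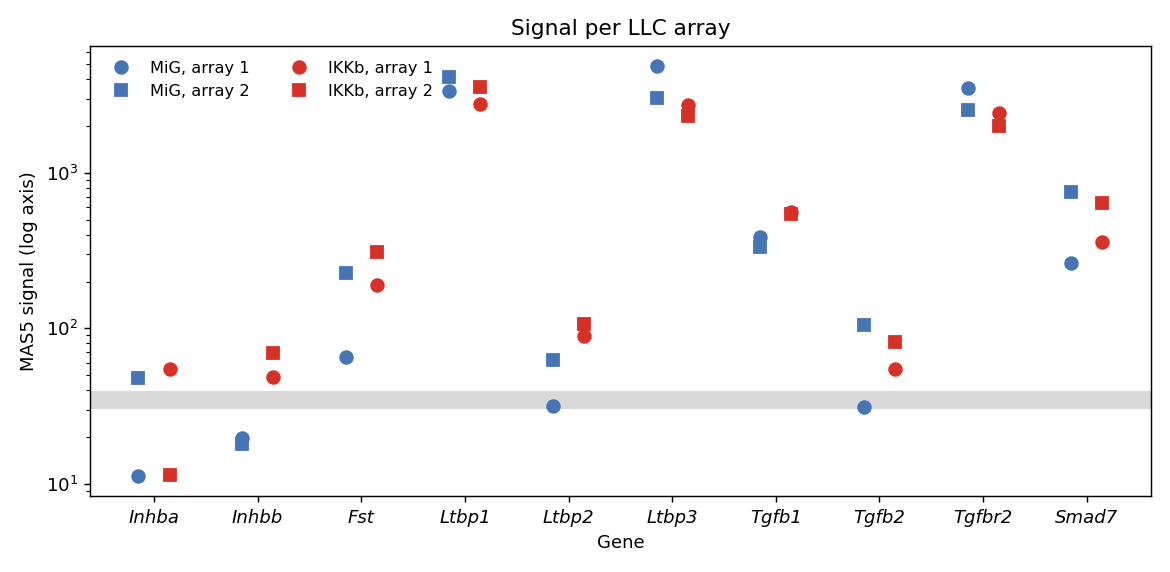
MAS5 signal on a log axis for the 10 mouse members on the 4 LLC arrays, blue for MiG and red for IKKb, circles for the arrays numbered 1 and squares for those numbered 2; the grey band is the range of the 40th percentile, 30.1 to 39.6. Ltbp3 and Tgfbr2 lie lower on both IKKb arrays and Tgfb1 higher, while Inhba and Inhbb lie around the band.

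Among the other pathway genes, 0 of the 52 tested in LLC passed the threshold. Tgfbi, a matrix protein named for its induction by TGF-beta, differed by -1.34 ± 0.32, Fn1, the gene of fibronectin, by -0.98 ± 0.24, and Thbs1 by -1.13 ± 0.36 (adjusted p = 1 for each). Their unadjusted p-values were 0.00482, 0.00476 and 0.0183. These were the 3 of 52 with an unadjusted p under 0.05, against 1.87% of all genes, and all were lower with IKKb. Leaving out 1 array at a time, Tgfbi ranged from -1.778 to -0.902 and Fn1 from -1.256 to -0.694. Beside these values, the summed signal of 7 fibroblast markers was 11070 to 20760 with MiG and 10670 to 12400 with IKKb (Col1a1 and Lum below the 40th percentile on every array), that of 7 leukocyte markers 704 to 724 and 686 to 687 (Ptprc, Itgam and Cd79a below it on every array), and that of 5 endothelial markers 115 to 164 and 94.6 to 139 (Pecam1, Tek and Vwf below it on every array). The fibroblast and endothelial sums overlapped between the vectors, while the leukocyte sum and the epithelial sum, given above, were lower with IKKb. The part of these sums in the differences of Tgfbi, Fn1 and Thbs1 was not tested.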

How the data were processed

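The members and the gene lists were chosen with earlier results of these data known. The deposited values are intensities per probe set on a linear scale, made with GCOS 1.4 and MAS5 per the submitters' processing notes; genome build and annotation are not given in the sources used here. The mean without the lowest and highest 2% was 500 on every array, as the authors deposited them, so differences in total RNA are not visible and signals near background are noisy. No further normalization was applied. Arrays have no counted depth, and their number limits the precision.

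Probe sets were named from the platform annotation: 41097 human sets name 1 gene, 1801 several and 11777 none, and 34958, 932 and 9211 mouse sets. The brightest of those naming 1 gene stood for the gene, on the scale log2(signal + 16), which understates the change of dim genes. A gene was tested if its signal passed the 40th percentile on 5 or more human arrays (15185 genes) or 2 or more mouse arrays (12555 genes). limma 3.58.1 in R 4.3.3 (lmFit, eBayes with an intensity trend, two-sided) gave Benjamini-Hochberg adjusted p over all tested genes, with a threshold of 0.05. All 15 human arrays entered 1 fit with the cell line as a block, which the shared line justifies. LLC was fitted without a block. Each SE comes from its fit, which pools the spread over all its arrays and moderates it towards that of other genes. A gene therefore has the same SE in all 3 human comparisons, whatever the spread of its 5 line differences. The 2 LLC arrays of a vector did not hold the same values. The fits were also run on simulated data with independent noise of equal size for every gene. These arrays differ from that setting, so nothing is read from it.

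Members were all named. From each list and comparison the rule named genes past the threshold, up to 4, or otherwise the 2 with the smallest p, and for likeness the 5 highest and 3 lowest correlations. A gene below the 40th percentile on every array of a vector has a bound only, taken against that percentile. Promoter windows came from RefSeq (GRCh38.p14) and were searched in Python 3.11.15; figures used matplotlib 3.10.9. Alternatives were pseudocounts of 1 and 64, quantile normalization, median centring, no filter or the 60th percentile, the mean of a gene's probe sets, no intensity trend, a robust prior, other blocks, the compared vectors only, and leaving out lines or arrays.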

Additional observations from a re-analysis of the deposited data

Results flagged for a closer look

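Within the human lines, 62 groups of 5 line differences were examined for a line far from the other 4, and 6 stood out by Dixon's criterion, which by chance picks about 1 group in 20. All values are log2 differences. For LTBP3 between IKKb and MiG, A549 gave -0.271 while the other lines lay between -0.527 and -0.458. For FST in the same comparison A549 gave -0.569 against 0.067 to 0.32 elsewhere, and for LTBP2 HCC827 gave -1.104 against -0.052 to 0.376. For TGFB1, H358 gave 0.602 against -0.155 to 0.005. ITGAV, the integrin subunit, gave 0.685 in H358 against 0.146 to 0.251 in the other lines. For the SMAD corepressor TGIF2 between IkB_SR and MiG, A549 gave -0.578 against -0.21 to -0.12. Of these 6 values, 2 come from the H358 IKKb array, whose spike-in and actin readings stood apart; the part of those readings in them was not tested.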

How the results depend on the processing

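Direction held in 1705 of 1754 recomputed gene differences over 23 settings, turned in 49, and a call was gained or lost in 64; the cause was not tested unless named. INHBB kept its direction in all 3 human comparisons, and LTBP3 too, at -0.09 and -0.07 with the mean of its probe sets.

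Genes past the threshold between IKKb and IkB_SR were 86 with no filter, 44 with the mean of probe sets, 21 with no intensity trend, 15 with the compared vectors only and 0 with no replicate block (cell line left out), and 24 (without PC9) to 128 when a line or array was left out; HCC827, H23 and the array labelled H23 IkB_SR left 31, 65 and 76. Between IKKb and MiG the mean of probe sets gave 1 in place of 0. Between IkB_SR and MiG the compared vectors only gave 1, and leaving out gave 0 to 8 (without H358). In LLC, 0 genes passed with quantile normalization, median centring, no filter, the 60th percentile, the mean of probe sets or no intensity trend, and 5 to 140 without 1 array, a lone array then being assumed to vary like the others.

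With the LLC replicate number as a block, 222 genes passed, among them Ltbp3 (adjusted p = 0.00937), Tgfb1 (0.022), Tgfbi (3.3e-06), Fn1 (0.000365), Relb (2.04e-07), Tnfaip3 (3.78e-05), Nfkb2 (0.00089) and Nfkbia (0.00204). Same-numbered arrays deviated together (r = 0.53), but nothing says that the numbers pair the cultures.

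The mean of probe sets turned TGFB2 (0.173) and IKBKB (0.277) between IKKb and IkB_SR, FST (-0.055), TGFB1 (-0.03) and IKBKB (0.264) between IKKb and MiG, TGFB2 (-0.095), IKBKB (-0.014) and SMURF1 (0.035) between IkB_SR and MiG, and Ltbp1 (0.032), Tgfb2 (-0.072) and Nedd4l (0.107) in LLC. Median centring turned SMAD7 between IKKb and MiG (0.035), and quantile normalization TGFBR2 between IkB_SR and MiG (-0.005).

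No replicate block ended the 4 human pathway calls (adjusted p = 1 for each). Quantile normalization also ended the call of KLF10 (0.0575), median centring that of ID1 (0.102) and a robust prior that of TGIF2 (0.054). Leaving out a line or array turned values near 0. Between IKKb and IkB_SR, TGFB2 ranged from -0.266 to 0.096 and SMAD7 from -0.087 to 0.23. Between IKKb and MiG, FST ranged from -0.064 to 0.18, LTBP2 from -0.268 to 0.102, TGFB1 from -0.077 to 0.112, TGFB2 from -0.132 to 0.095, SMAD7 from -0.136 to 0.107 and ID3 from -0.036 to 0.168. Between IkB_SR and MiG, LTBP1 ranged from -0.158 to 0.067, TGFB2 from -0.001 to 0.187, TGFBR2 from -0.106 to 0.095, SMAD7 from -0.123 to 0.058 and IKBKB from -0.107 to 0.081. In LLC, Inhba ranged from -0.6 to 0.767, Tgfb2 from -0.546 to 0.817, Smad7 from -0.631 to 0.829 and Id3 from -0.625 to 0.031.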

Other observations

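The variation between vectors, as a share of a gene's sum of squares over the 15 human arrays, placed INHBA at the 89.6th percentile of all genes tested, FST at the 86th, INHBB at the 82.4th and LTBP3 at the 79th. TGFB2, at the 8.4th, and SMAD7, at the 3.9th, lay near the other end. After removal of the line mean, the members also differed in how they followed RELB, the NF-kB subunit gene, over those arrays. The correlation with RELB was -0.94 for INHBB, -0.83 for LTBP3, 0.75 for INHBA, 0.73 for FST and 0.69 for TGFB1, and it was 0.07 for SMAD7 and -0.08 for TGFB2. LTBP1, LTBP2, TGFB2 and SMAD7 resembled each other instead, with r between 0.52 and 0.72 for every pair of them. In H358 these genes were all highest with IKKb, on the array whose spike-in and actin readings stood apart. In HCC827 they were all lowest with IKKb. The part of these arrays in the likeness was not tested. The percentiles and correlations share arrays, lines and vectors and carry no test. Each is from the brightest probe set of its gene. The percentile and correlation of INHBA include its A549 and H23 arrays, all below the 40th percentile of signal, whose values have no order. Because INHBB and LTBP3 were chosen for lower signal with active NF-kB on these arrays, nothing is read from their percentiles or correlations.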
